A study of Homo sapiens with 6 samples.

Results

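The 4 ID genes, ID1 to ID4, were examined for chromatin accessibility in A375 melanoma cells, with the ID2 locus first. Peaks were taken as ID peaks when their centre lay in the GENCODE release 44 body of an ID gene, or when they were intergenic and the nearest protein-coding start site was that of an ID gene. This gave 90 peaks of the 152800 in the atlas, 14 for ID1, 33 for ID2, 12 for ID3 and 31 for ID4. ID2 was selected on its number of peaks called higher in HMGB2OE cells in this same comparison, and the other 3 genes entered as the rest of its family. The values of ID peaks in HMGB2OE against empty vector libraries are therefore a description and carry no test. The sequences of the peaks played no part in the choice, whereas control levels enter each call and positions set which gene a peak belongs to.

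A375 cells are an established line from a human melanoma. ATAC-seq uses the Tn5 transposase, which cuts and tags accessible DNA, so that reads pile up where chromatin is open. The experiment held 3 libraries from A375 cells with an empty vector and 3 from HMGB2OE cells, which were transduced with lentivirus to overexpress HMGB2, a chromatin protein of the high mobility group. The cells were stably transduced populations selected with a drug, no other treatment or time point is given, and the libraries were technical replicates of 1 experiment, so that every spread and p-value here measures the variation between these libraries and not between independent cultures.

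ID proteins carry a helix–loop–helix domain but lack the basic region that touches DNA. They bind E proteins such as TCF3, TCF4 and TCF12 and keep them, and the tissue-specific basic helix–loop–helix partners of E proteins, off their E-box sites, and in neural crest and other progenitor cells they are known for holding back differentiation. BMP ligands, acting through receptor serine kinases and SMAD1, SMAD5 and SMAD4, are the classical inducers of ID1, ID2 and ID3.

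Sequences of 3 stretches from the ID2 locus are shown first, since the results turn on peaks on the 5′ side of the gene and on the contrast with its promoter. They are given on the plus strand of hg38 in lower case, with capitals for matches to the words searched further on, the general E-box left out (here CAGCTG and TGANTCA). Peaks of each gene were numbered from 5′ to 3′ along its strand. ID2 peaks 18 and 20 had the largest log2 fold changes among the called peaks of the locus, and the promoter stretch is the part of peak 29 that lies before the first ID2 exon. The stretch of peak 20 is centred on its peak, but that of peak 18 is not. It begins at the marked TGACTCA, whose centre lies 181.5 bases from the centre of peak 18.
ID2 peak 18 (chr2:8469984-8470283): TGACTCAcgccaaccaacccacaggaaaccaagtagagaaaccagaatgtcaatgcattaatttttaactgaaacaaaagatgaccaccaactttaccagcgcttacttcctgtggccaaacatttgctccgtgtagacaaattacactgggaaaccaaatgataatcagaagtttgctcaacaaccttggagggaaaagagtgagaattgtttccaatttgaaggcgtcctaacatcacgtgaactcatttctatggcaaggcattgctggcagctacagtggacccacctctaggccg
ID2 peak 20 (chr2:8543591-8543890): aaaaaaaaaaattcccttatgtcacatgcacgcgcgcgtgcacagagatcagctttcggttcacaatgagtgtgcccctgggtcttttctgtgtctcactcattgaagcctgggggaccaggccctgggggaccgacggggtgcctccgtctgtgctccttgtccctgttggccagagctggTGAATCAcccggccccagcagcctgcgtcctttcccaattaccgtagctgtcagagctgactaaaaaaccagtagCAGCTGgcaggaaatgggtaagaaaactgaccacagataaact
ID2 peak 29 (chr2:8678707-8678844): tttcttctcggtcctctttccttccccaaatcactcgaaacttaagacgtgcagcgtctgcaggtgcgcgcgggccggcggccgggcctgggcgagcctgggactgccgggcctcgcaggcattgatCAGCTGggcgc

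Counts in peaks per library ranged from 26910189 to 45645294, and within a condition any pair of libraries differed beyond sampling noise (chi-square per degree of freedom from 2.49 to 4.54). Values are given below as normalized counts, that is, counts scaled to the mean effective library size of the 6 libraries. Calls needed an adjusted p-value below 0.05 in edgeR's quasi-likelihood test over 150117 peaks, together with a change of 1.5-fold or more. The HMGB2 exon peak on chromosome 4 from 173332680 to 173333181 had 50.0, 25.0 and 21.1 normalized counts in the empty vector libraries and 102, 101 and 92.3 in the HMGB2OE libraries (log2 fold change 1.67, standard error 0.249, edgeR-adjusted p = 0.000113), where reads from a construct could not be told apart from those of the gene itself. Of the melanocyte lineage markers, MITF, SOX10 and PAX3 had promoter peaks at the 97.1, 93.0 and 87.6 percentiles of control level and PMEL at the 74.8 percentile, while TYR, DCT and MLANA had no promoter peak. Among markers of other cells, PTPRC, CDH5 and ALB had none, and CD3E, EPCAM and CD79A lay at the 74.6, 71.6 and 47.7 percentiles.

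ID2 (ENSG00000115738.10) lies on the plus strand of chromosome 2 of hg38 from 8678845 to 8684461. All 33 of its peaks were tested. Of these, 11 were called higher in HMGB2OE cells and 0 lower. The share of all tested peaks called higher was 1.87%, and 1.44% were called lower (2800 and 2166 peaks, or 2272 and 2306 with GC offsets). All 11 lay on the 5′ side of the gene, over 3 kb from its start, among 28 peaks from 9.2 to 866 kb upstream. The median log2 fold change of these 28 peaks was 0.54 (range −0.31 to 1.01), against −0.0049 over all tested peaks. The log2 fold change was above 0 in 26 of them and below 0 in 2, where 49.2% of all tested peaks lay above 0. In 20 of the 28, each HMGB2OE library was above every empty vector library, a pattern that 12.6% of all tested peaks had, and 0 had the opposite order, which 12.5% of all tested peaks had. Of the 103394 tested peaks over 3 kb from any start site, 53876 had a log2 fold change above 0, with a median of 0.0148. The first order was found in 14505 of them and the opposite order in 11998.

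The summed normalized count of the 28 peaks on the 5′ side was 3267, 3516 and 3823 in the empty vector libraries and 4841, 4779 and 4691 in the HMGB2OE libraries. The conditions did not overlap, and the ratio of their means was 1.35. Over the 11 called peaks the sums were 1052, 1099 and 1252 against 1863, 1893 and 1742 (ratio 1.62). That difference was set by the call, which needed a rise of 1.5-fold or more in these same libraries. The 17 peaks of the 5′ side that were not called had higher sums in each HMGB2OE library than in any empty vector library, from 2886 to 2978 against 2215 to 2571 (ratio 1.22).

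**Figure D1:**
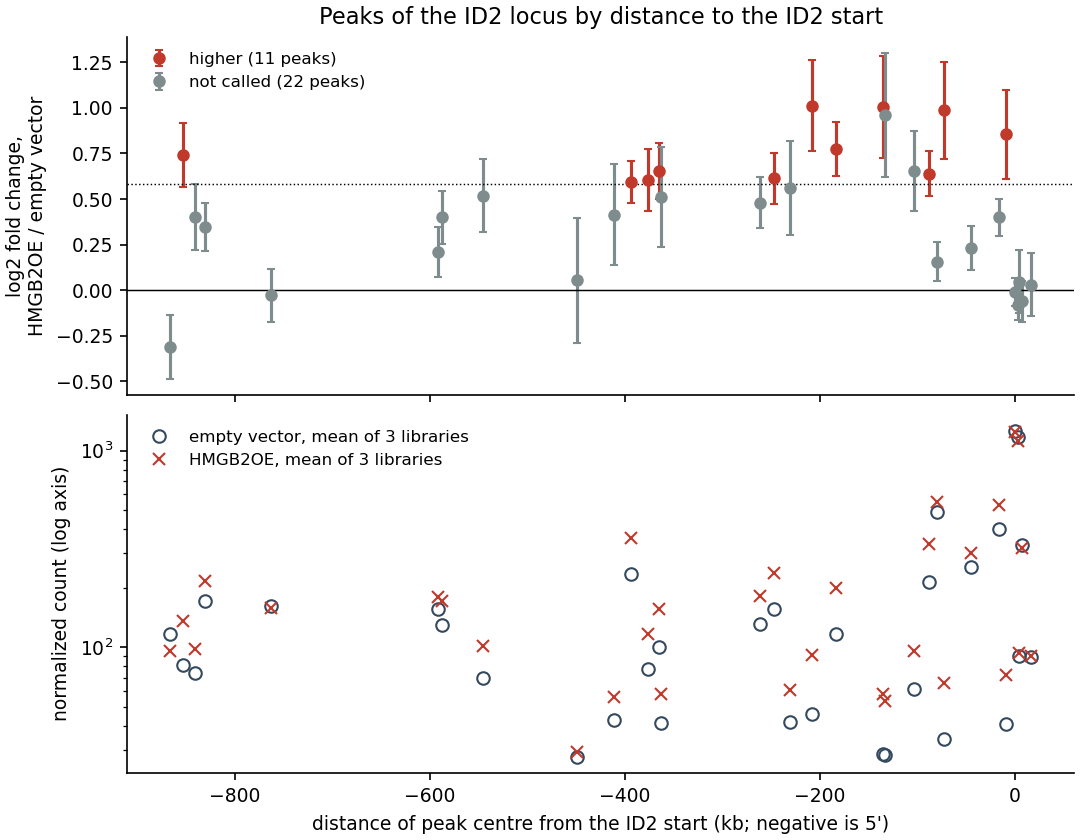
Peaks of the ID2 locus by the distance of their centre from the ID2 start (kb, negative is 5′). The upper panel gives the log2 fold change with its standard error, with the fold limit of 1.5 dotted, and the lower panel the mean normalized count of 3 empty vector (circles) and 3 HMGB2OE libraries (crosses) on a log axis. The 11 called peaks all lie left of the start, while the 2 peaks with the highest counts, at the start and within the gene, lie near 0.

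Far from the gene, peak 2 (chr2:7825546-7826047) lay 853 kb upstream. It had 79.2, 79.2 and 86.6 normalized counts in empty vector and 111, 172 and 126 in HMGB2OE libraries (log2 fold change 0.74, standard error 0.176). HMGB2OE replicate 2 was the highest of the 6 libraries by a wide margin there. The remaining 4 peaks within 100 kb of peak 2 on either side, peaks 1, 3, 4 and 5, were not called and ran from −0.31 to 0.40.

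The next called peaks lay in the body of LINC00299, a long non-coding RNA gene between ID2 and the genes further upstream. Peak 11 (chr2:8284348-8284849), 394 kb from the start, had 229, 262 and 220 normalized counts against 386, 365 and 324 (log2 fold change 0.59, standard error 0.116), and was the called peak with the highest control level. Peak 12 (chr2:8301899-8302400) had 82.0, 71.4 and 79.6 against 122, 113 and 118 (0.60, standard error 0.168). The conditions did not overlap in either peak, but with 1 library left out peak 11 was called in 2 of the 6 fits and peak 12 in 1. Peak 13 (chr2:8312943-8313444), 366 kb from the start, had 93.1, 92.9 and 115 against 170, 158 and 143 (log2 fold change 0.65, standard error 0.153). Peak 16 (chr2:8431743-8432244) had 131, 146 and 192 normalized counts against 262, 220 and 236 (0.61, standard error 0.139), with empty vector replicate 3 nearest to the HMGB2OE libraries.

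Nearer to ID2, peak 18 (chr2:8469918-8470419), 209 kb from the start and in the overlap of LINC00299 and LINC01814, had the largest log2 fold change of the locus. Its normalized counts were 43.1, 29.3 and 64.4 in empty vector and 68.0, 92.6 and 113 in HMGB2OE libraries (log2 fold change 1.01, standard error 0.248). The lowest HMGB2OE library was close to the highest empty vector library. Peak 19 (chr2:8495184-8495685), 183 kb from the start, had 94.5, 117 and 139 against 192, 226 and 185 (log2 fold change 0.78, standard error 0.149). It was the only one of the 11 that was called in every fit that left out 1 of the 6 libraries.

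Of the remaining 2 called peaks in LINC01814, peak 20 (chr2:8543490-8543991), 135 kb from the start, had 29.2, 24.1 and 32.8 normalized counts against 45.1, 55.9 and 72.0 (log2 fold change 1.01, standard error 0.28). It had the lowest control level of the called peaks. Peak 23 (chr2:8590831-8591332), 87.8 kb from the start, had 178, 221 and 247 against 363, 344 and 303 (0.64, standard error 0.124). Between them, peaks 21 and 22 had log2 fold changes of 0.96 and 0.65 with standard errors of 0.341 and 0.218 and were not called. Empty vector replicate 2 was the lowest library in both, at 10.3 and 40.4 normalized counts.

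The closest called peaks to the gene were peaks 25 and 28. Peak 25 (chr2:8605623-8606124), 73.0 kb from the start, had 45.9, 27.5 and 29.3 normalized counts against 82.5, 66.7 and 48.4 (log2 fold change 0.99, standard error 0.267), so that HMGB2OE replicate 3 and empty vector replicate 1 nearly met. Peak 28 (chr2:8669393-8669894), 9.2 kb from the start and in the antisense gene ID2-AS1, had 47.3, 28.4 and 46.8 against 62.9, 80.9 and 73.2 (0.85, standard error 0.243). The 3 peaks of the 5′ side with the highest control levels, peaks 24, 27 and 26 with 489, 399 and 257 normalized counts, lay within 80.4 kb of the start and were not called (log2 fold change 0.16, 0.40 and 0.23). Peak 27 and peak 15 passed the adjusted p-value but not the fold limit.

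**Figure D2:**
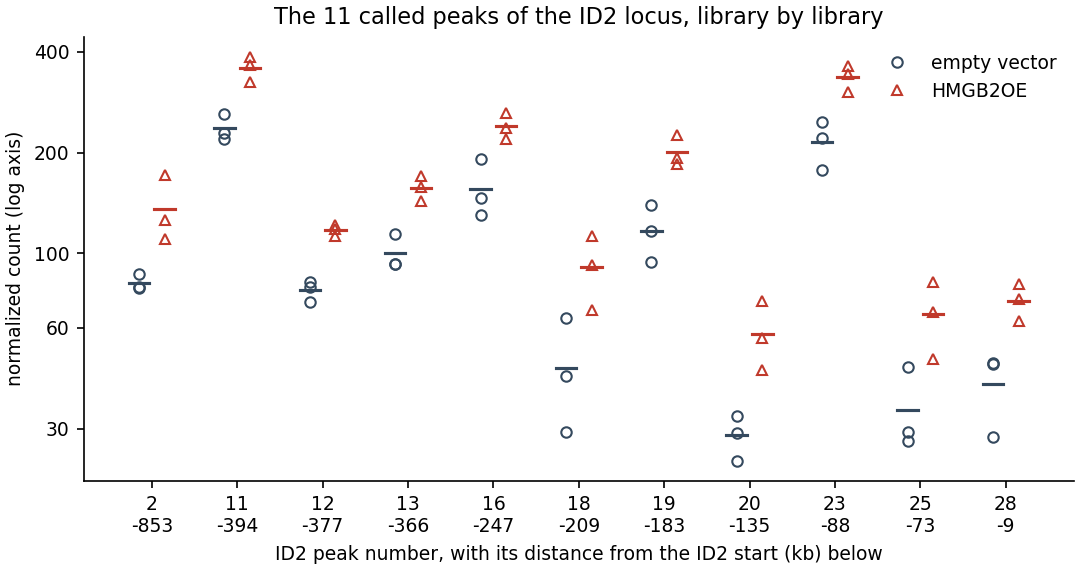
Normalized counts (log axis) of the 11 called peaks of the ID2 locus in each of 3 empty vector (circles) and 3 HMGB2OE libraries (triangles), with a bar at the mean of each condition. The peaks were chosen by their call in these same libraries. The conditions do not overlap in any of the 11 peaks, and they come closest in peaks 18 and 25.

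With 1 library left out, peaks 25 and 28, the called peaks closest to the gene, were each called in 2 of the 6 fits. Peaks 16 and 20 were called in 3 of them, peaks 13, 18 and 23 in 4 and peak 2 in 5. The number of called ID2 peaks depended on single libraries. It was 4 without HMGB2OE replicate 1, 5 without HMGB2OE replicate 2, 7 without HMGB2OE replicate 3 and 4 without empty vector replicate 2, and 7 with offsets for GC content. GC offsets lost the calls of peaks 11, 12, 13 and 16, and the DESeq2 Wald test those of peaks 12 and 28. The median log2 fold change of the 28 peaks stayed between 0.47 and 0.58 over every alternative fit.

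The ID2 gene itself had a different profile, with log2 fold changes near 0 and, in peaks 29 and 30 but not in peak 31, high control levels. Peak 29 (chr2:8678707-8679208) spans the start of ID2 and holds 364 bases of its untranslated exon, and its centre also lies in ID2-AS1, so that accessibility there cannot be assigned to one of the genes. Its normalized counts were 1202, 1328 and 1244 in empty vector and 1257, 1311 and 1180 in HMGB2OE libraries (log2 fold change −0.01, standard error 0.0787), and its control level was the highest of the locus, at the 96.7 percentile of all tested peaks. Peak 30 (chr2:8681746-8682247), which holds 82 coding bases of ID2, had 1040, 1211 and 1279 against 1103, 1107 and 1131 (−0.08, standard error 0.0833). Peak 31 (chr2:8682916-8683417), in the gene, had 90.3, 91.2 and 88.9 against 96.1, 85.1 and 99.1 (0.05, standard error 0.172). In all 3 the conditions overlapped. The 2 peaks on the 3′ side had log2 fold changes of −0.06 and 0.03, and the summed count of these 5 peaks had a ratio of 0.973 between the conditions. Promoters differed from other peaks beyond this locus too. Of all tested peaks within 3 kb of any start site, 1.90% were called in either direction, with a median log2 fold change of −0.0359. Of those further away, 3.95% were called, with a median of 0.0148.

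The control level differed along the locus. It enters the calls on which ID2 was selected and is given as a description. The 28 peaks of the 5′ side had a median of 90.9 normalized counts in empty vector cells, at the 44.6 percentile of all tested peaks, while peaks 29 and 30 were above the 96 percentile. Of the 28 centres, 20 lay in a long non-coding RNA gene, 13 of them in LINC00299 and 6 in LINC01814, and 10 of the 11 called peaks were among the 20. By distance, 3 of the 6 peaks within 100 kb of the start and 8 of the 22 beyond it were called.

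The ID2 peak furthest from the gene, peak 1 (chr2:7812279-7812780), had a log2 fold change of −0.31, and the next peak outward (chr2:7773318-7773819), which belongs to RNF144A, one of −0.29. On the other side, the last ID2 peak had a log2 fold change of 0.03 and the first peak of KIDINS220 one of −0.04. Among the 3 nearest genes with tested peaks on each side of ID2, SOX11 had 3 higher and 1 lower of 68 peaks, RSAD2 3 higher and 1 lower of 29, and RNF144A 0 higher and 1 lower of 39. KIDINS220, MBOAT2 and ASAP2, on the 3′ side, had 0 called of 4, 12 and 25. Over all 6 genes, 6 of 177 peaks were called higher and 3 lower, with a median log2 fold change of 0.07. In either direction 5.08% of these peaks were called, against 3.31% of all tested peaks. SOX11, RSAD2 and RNF144A start 2986, 1813 and 1761 kb from the ID2 start. Their median log2 fold changes were 0.19, 0.02 and −0.02. KIDINS220, MBOAT2 and ASAP2 start 159, 325 and 528 kb from it.

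The sequence of the 5′ side was searched for 7 short words on both strands. The AP-1 word TGANTCA, which reads the same on both strands but for the middle base and is the core site of FOS and JUN dimers, was present in 24 of the 28 peaks (85.7%). It was present in 41.7% of the 103394 tested peaks over 3 kb from any start site and in 36.4% of all tested peaks. The share was 10 of 11 in the called peaks (90.9%) and 14 of 17 in the peaks that were not called (82.4%). Among all tested peaks over 3 kb from any start site, it was 44.4% in those called higher. It was 52.2% in those called lower, the highest of the call classes, and 41.4% in those not called. Some of the 28 peaks lay near the start of another transcript, and of the 23 that lay over 3 kb from any start site, 19 held the word (82.6%). In the gene and on its 3′ side the share was 1 of 5, and in the 3 neighbouring genes upstream and downstream it was 43.4% and 46.3%. Within 100 bases of the peak centre, 17 of the 28 peaks held the word (60.7%), against 30.8% of all peaks over 3 kb from a start site. With C or G at the centre of the word, a version chosen after the values were seen, the shares were 64.3% and 32.1%. Peaks of 1 locus are not independent samples of the genome, and the shares carry no test.

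The AP-1 word of each called ID2 peak that holds one is printed with its surroundings on the plus strand of hg38, with the word in capitals, to show how the sites differ at the middle base and in their flanks. Where a peak holds more than one, the word nearest to the peak centre is given.
ID2 peak 2 (chr2:7825835-7825865): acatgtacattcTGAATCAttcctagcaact
ID2 peak 11 (chr2:8284582-8284612): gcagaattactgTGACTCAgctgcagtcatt
ID2 peak 12 (chr2:8302166-8302196): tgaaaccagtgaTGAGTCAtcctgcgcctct
ID2 peak 13 (chr2:8313119-8313149): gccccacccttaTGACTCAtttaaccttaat
ID2 peak 16 (chr2:8432211-8432241): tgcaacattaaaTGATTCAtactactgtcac
ID2 peak 18 (chr2:8469972-8470002): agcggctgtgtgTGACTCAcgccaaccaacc
ID2 peak 19 (chr2:8495410-8495440): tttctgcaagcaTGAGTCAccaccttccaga
ID2 peak 20 (chr2:8543761-8543791): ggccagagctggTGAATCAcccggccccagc
ID2 peak 23 (chr2:8591218-8591248): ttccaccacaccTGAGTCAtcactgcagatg
ID2 peak 25 (chr2:8605874-8605904): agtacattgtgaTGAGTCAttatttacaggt
The word is TGACTCA or TGAGTCA in 7 of these 10 peaks, and its centre lies within 60 bases of the peak centre in 7 of them. Peak 28, inside ID2-AS1, holds no match to these letters in its 502 bp.

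**Figure D3:**
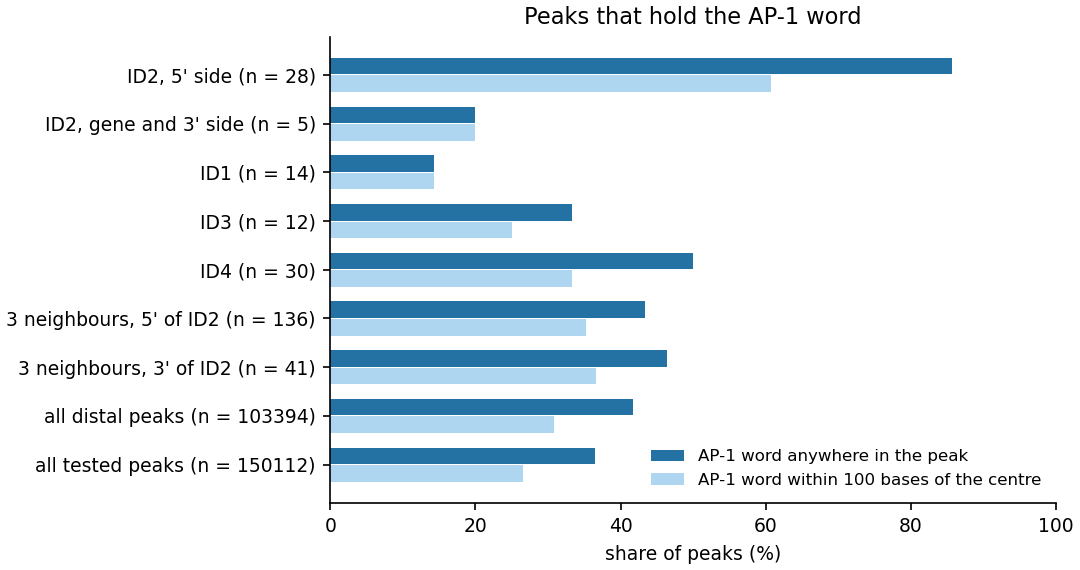
Share of peaks (%) that hold the AP-1 word anywhere in the peak (dark bars) or within 100 bases of its centre (light bars), by set of peaks with their number. The 5′ side of ID2 stands at 85.7% and 60.7%, and all peaks over 3 kb from a start site (all distal peaks) at 41.7% and 30.8%.

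Of the other words, the E-box CAGCTG, bound by many dimers of E proteins, was present in 13 of the 28 peaks of the 5′ side (46.4%) and in 25.2% of all peaks over 3 kb from a start site. It was in 5 of the 11 called and 8 of the 17 other peaks, and in 42.7% of the 89 tested peaks of ID1 to ID4 together. The general E-box CANNTG, which contains CAGCTG, was in 27 of the 28 peaks (96.4%) and in 93.1% of peaks over 3 kb from a start. The TEAD word GGAATG was in 12 (42.9% against 30.6%), the SOX word ACAAAG in 10 (35.7% against 41.0%), the SMAD word GGCGCC in 1 (3.57% against 5.98%) and the CRE word TGACGT in 1 (3.57% against 5.57%). The GC content of the 28 peaks had a median of 48.2%, against 44.2% in all peaks over 3 kb from a start site and 71.7% in peak 29.

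ID4 (ENSG00000172201.12), the family member on chromosome 6 from 19837370 to 19842197, had 31 peaks, of which 30 were tested and 1, 72.1 kb upstream with at most 4.30 normalized counts in any library, was not. Of the 30, 2 were called higher and 0 lower, where 1.87% and 1.44% of all tested peaks were. Both called peaks lay far upstream within the long non-coding RNA gene LNC-LBCS. Peak 7 (chr6:19472095-19472596), 365 kb from the start, had 122, 140 and 135 normalized counts in empty vector and 269, 236 and 238 in HMGB2OE libraries (log2 fold change 0.90, standard error 0.13), with the conditions far apart, and it was called in every fit that left out 1 library. Peak 4 (chr6:19368395-19368896), 469 kb from the start, had 66.7, 41.3 and 64.4 against 91.0, 99.3 and 102 (0.79, standard error 0.205). It was called in 3 of the 6 fits that left out 1 library. On the 5′ side, 16 of 18 tested peaks had a log2 fold change above 0 (median 0.31), where 49.2% of all tested peaks did. On the 3′ side, 5 of 11 had one above 0 (median −0.04). The promoter peak (chr6:19837754-19838255) had 221, 251 and 253 normalized counts against 238, 322 and 271 (0.19, standard error 0.124), and its conditions overlapped.

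ID3 (ENSG00000117318.9) lies on the minus strand of chromosome 1 from 23557926 to 23559501. Of its 12 peaks, 1 was called higher and 0 lower, where 1.87% and 1.44% of all tested peaks were. The median log2 fold change of the 12 was −0.01. The called peak (chr1:23598246-23598747), 39.0 kb upstream in MDS2, had 63.9, 45.6 and 64.4 normalized counts against 99.5, 90.9 and 91.2 (log2 fold change 0.72, standard error 0.199). It was called in 2 of the 6 fits that left out 1 library and was not called by the DESeq2 Wald test. The peak 26.3 kb upstream had 571, 572 and 565 against 451, 452 and 404 (−0.38, standard error 0.0951), and it passed the adjusted p-value but not the fold limit. The promoter peak with the highest count (chr1:23562216-23562717), 2.965 kb upstream of the start, had 1188, 1424 and 1355 against 1322, 1296 and 1182 (−0.06, standard error 0.0821). The peak over the start itself (chr1:23559193-23559694) had 1292, 1289 and 1297 against 1198, 1300 and 1145 (−0.09, standard error 0.0781).

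ID1 (ENSG00000125968.9), on chromosome 20 from 31605283 to 31606515, had 14 peaks and 0 called in either direction. Its median log2 fold change was 0.02. The promoter peak with the highest count (chr20:31604012-31604513) had 1447, 1633 and 1593 normalized counts in empty vector and 1460, 1435 and 1263 in HMGB2OE libraries (log2 fold change −0.17, standard error 0.0797), and the conditions overlapped. ID1 peaks had the highest control levels of the family, with a median at the 80.7 percentile of all tested peaks, followed by ID3 at 74.3, ID2 at 48.6 and ID4 at 47.6. The AP-1 word was in 2 of the 14 peaks of ID1, 4 of the 12 of ID3 and 15 of the 30 tested peaks of ID4. Over the whole family, 14 of the 89 tested peaks were called higher and 0 lower, where 1.87% and 1.44% of all tested peaks were. Most of the 14 are the ID2 calls on which the family was selected. The 3 calls outside ID2 came to 1 without HMGB2OE replicate 2, HMGB2OE replicate 3 or empty vector replicate 2.

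**Figure D4:**
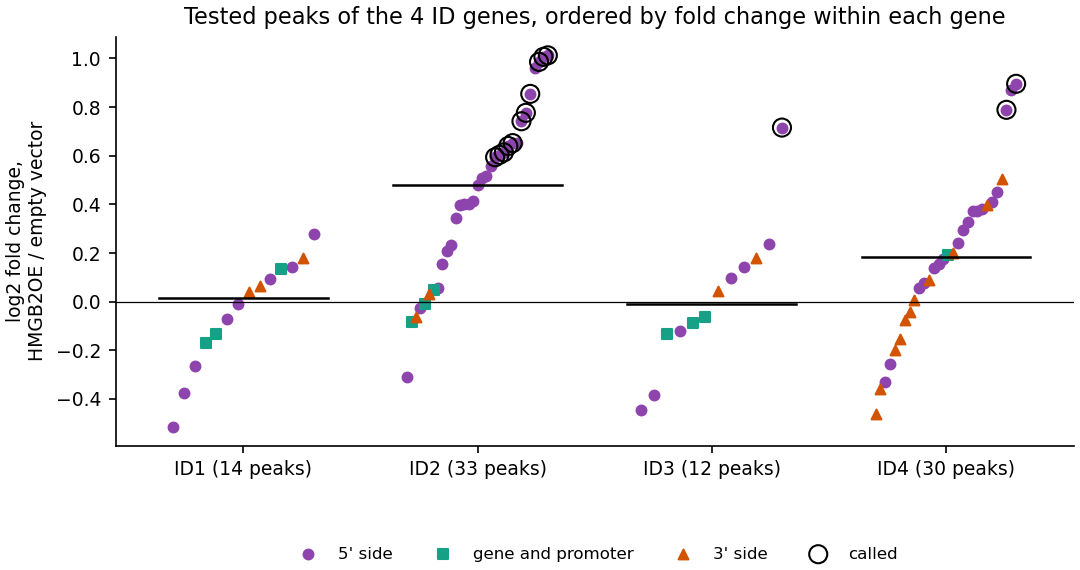
Log2 fold change of each tested peak of ID1 (14), ID2 (33), ID3 (12) and ID4 (30), ordered within each gene, with the side of the gene as symbol, called peaks ringed and the median of each gene as a bar. The medians are 0.02, 0.48, −0.01 and 0.19, and the peaks of gene and promoter (squares) lie between −0.17 and 0.19.

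Peaks of the genes that act with ID proteins were taken from the same fit over all peaks, where 3.31% of tested peaks were called in either direction. The E proteins, to which ID proteins bind, had 2 higher and 1 lower of 96 peaks, with a median log2 fold change of −0.06. Means and SDs over the 3 libraries of each condition are given. An intergenic TCF4 peak (chr18:55912336-55912837), 248 kb upstream of the start, rose from 128 ± 17.1 to 197 ± 12.1 normalized counts (log2 fold change 0.62, edgeR-adjusted p = 0.00666). A peak in the body of TCF12 (chr15:56929869-56930370) fell from 67.2 ± 20.4 to 30.7 ± 0.895 (log2 fold change −1.12, edgeR-adjusted p = 0.00959). TCF3, the founding member of the group, had 0 called of 9, though its promoter peak was at 766 ± 40.5 and 605 ± 29.7 normalized counts (log2 fold change −0.34, edgeR-adjusted p = 0.0182), short of the fold limit. The promoter peaks of TCF4 and TCF12 had log2 fold changes of −0.08 and −0.23 with edgeR-adjusted p-values of 0.672 and 0.267. Without HMGB2OE replicate 1 or with GC offsets, 1 E protein peak was called, and the TCF4 call was lost in both fits and without empty vector replicate 3.

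In the pathway that induces ID genes, BMP receptors and SMADs had 2 higher and 0 lower of 119 peaks over 12 genes (median 0.0049), where 1.87% and 1.44% of all tested peaks were. The SMAD5 peak (chr5:136089752-136090253), 42.8 kb upstream of this signal transducer, rose from 44.5 ± 5.80 to 97.7 ± 8.13 normalized counts (log2 fold change 1.14, edgeR-adjusted p = 0.000891). An intergenic peak assigned to the activin and BMP receptor gene ACVR2A, but 813 kb upstream of its start, rose by 0.75 on the log2 scale (edgeR-adjusted p = 0.0053). BMP inhibitors had 3 higher and 3 lower of 188 peaks over 11 genes (median −0.03). SMURF2, a ubiquitin ligase for SMADs, had 2 higher and 1 lower, with the smallest p at a peak 70.5 kb upstream that rose from 242 ± 26.8 to 403 ± 33.9 (log2 fold change 0.72, edgeR-adjusted p = 0.000225). A peak 88.4 kb from NOG, which encodes the secreted BMP antagonist noggin, fell from 349 ± 58.2 to 209 ± 23.0 (log2 fold change −0.75, edgeR-adjusted p = 0.000494). FST, which encodes follistatin, had 1 higher peak, 137 kb upstream (log2 fold change 1.08, edgeR-adjusted p = 0.00211), and 1 lower. Without empty vector replicate 3, 4 peaks of BMP receptors and SMADs were called.

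Class II helix–loop–helix genes, whose proteins pair with E proteins, had 5 higher and 2 lower of 185 peaks over 24 genes with tested peaks (median 0.04). In either direction 3.78% of these peaks were called, against 3.31% of all tested peaks. ATOH8 held 2 of the higher peaks, and the one in the gene (chr2:85765337-85765838) rose from 320 ± 8.30 to 532 ± 32.3 (log2 fold change 0.73, edgeR-adjusted p = 4.67e-05). Intergenic peaks of PTF1A and TWIST2, 37.0 and 90.8 kb from the starts, rose by 1.11 and 0.76 on the log2 scale (edgeR-adjusted p = 0.0037 and 0.014). Those of MYF5 and TCF21, 35.8 and 183 kb from the starts, fell by 1.07 and 0.80 (edgeR-adjusted p = 0.0175 and 0.0289). The HES and HEY genes, helix–loop–helix repressors downstream of Notch, had 4 higher and 0 lower of 97 peaks over 9 genes (median 0.07). HEYL held 2 of the 4, with the smallest p at a peak in the gene that rose from 289 ± 38.2 to 465 ± 57.8 (log2 fold change 0.68, edgeR-adjusted p = 0.000514). HES1 and HEY1 held 1 each, 241 and 72.8 kb from the starts (log2 fold change 0.60 and 0.66, edgeR-adjusted p = 0.00373 and 0.0379). The HEY1 call was made in 1 of the 6 fits that left out a library, and that of TCF21 in 1. Called peaks came to 4 for class II genes without HMGB2OE replicate 3, and to 2 for HES and HEY genes without HMGB2OE replicate 1 or empty vector replicate 2.

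Summed over all its tested peaks, the normalized count of ID2 was compared with that of the 4726 genes with at least 10 tested peaks. The 5 genes with the highest Pearson r over the 6 libraries, on the log2 scale, were SLC7A1 (0.998), NR3C2 (0.997), C14orf132 (0.996), DCHS2 (0.995) and PDZRN3 (0.993). These values describe 6 libraries that fall into 2 conditions and share their depth and scaling, and they carry no p-value. NR3C2, which encodes the mineralocorticoid receptor, had 3 higher and 0 lower of 18 peaks, and PDZRN3 had 4 higher and 0 lower of 35. C14orf132 had 2 higher and 0 lower of 14, and DCHS2 0 higher and 1 lower of 19. SLC7A1, an amino acid transporter gene, had 0 called of 18. For comparison, the shares over the 150117 tested peaks were 1.87% higher and 1.44% lower. These genes were picked because their counts followed that of ID2 over the same 6 libraries. Their calls are therefore not independent of that choice and carry no test.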

How the data were processed

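ATAC-seq counts of 3 empty vector and 3 HMGB2OE libraries of A375 cells were analysed. The authors trimmed reads with Trim Galore 0.6.7 and cutadapt 4.0, aligned them to hg38 and removed duplicates with Picard. MACS2 peaks, with public melanocyte data as the control, were freed of blacklisted regions and merged within 500 bp, and the authors deposited the raw whole-number counts of featureCounts per peak and library, with no normalization. Whether positions were shifted for Tn5, how reads with several alignments were treated, and whether peaks were called per library are not given in the sources used here. Weak peaks and peaks in repeats could differ under other choices. All peaks were 502 bp wide except 15, so counts of peaks were compared without a length correction.

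The counts were fitted in R 4.3.3 using edgeR 4.0.16 (TMM, with factors from 0.975 to 1.02, filterByExpr, quasi-likelihood F test, no covariate), with Benjamini–Hochberg adjustment over 150117 peaks. Standard errors were derived from each log2 fold change and its F statistic. Peaks were assigned with GENCODE release 44, and 5 peaks outside the reference were not searched for words. The members and lists were chosen with earlier results of these data known. Named were every called ID2 peak and the peaks of its gene and promoter, the promoter peak of highest count and every called peak of the other ID genes, for each list gene with a call its called peak of smallest p, the promoter peaks of highest count of E proteins, and the 5 genes most like ID2. The named result of 1 list gene is not reported here. Peaks 21, 22, 24, 26 and 27 of ID2, the ID3 peak 26.3 kb upstream and the peak over the ID3 start were singled out after their values were seen.

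Alternatives were library size only, DESeq2 size factors, the DESeq2 1.42.0 Wald test, no filter, a block for the replicate number, a minimum of 10 counts in each library, no fold limit, GC offsets, assignment to the nearest start site and leaving out each library. The script was tested on simulated data.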

Additional observations from a re-analysis of the deposited data

How the results depend on the processing

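The 11 called ID2 peaks were 11 with library size only, DESeq2 size factors, no filter, at least 10 counts in every library and assignment to the nearest start site, 13 with no fold limit and 9 with the DESeq2 Wald test, which called 2 peaks of ID1, ID3 and ID4 in place of 3. With GC offsets 7 ID2 peaks were called, all on the 5′ side, and the counts were 1 for E proteins, 4 for BMP receptors and SMADs and 2 for HES and HEY genes. The cause was not tested. By construction, leaving out the fold limit gave more calls, with 5164 higher and 4546 lower over all peaks, 1 lower in the ID family, 20 in the neighbouring genes, 6 for E proteins, 5 for BMP receptors and SMADs, 13 for BMP inhibitors, 12 for class II genes and 7 for HES and HEY genes. Of the called peaks named, 0 changed sign in any fit. The conditions did not overlap in any of these peaks, so leaving out a library could hardly reverse the sign. The log2 fold changes of ID2 peaks 29 and 31, not called, ran over all fits from −0.05 to 0.03 and from −0.01 to 0.11. Among the list genes named, the DESeq2 Wald test lost calls including those of TCF21 and HEY1, and GC offsets those of TCF4, HES1 and HEY1.

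With 1 library left out, ID2 had 4 to 10 called peaks, all on the 5′ side, with a median log2 fold change there of 0.49 to 0.58. ID1, ID3 and ID4 together had 1 to 3, and 0 ID peaks were called lower. The neighbouring genes had 6 to 12, E proteins 1 to 3, BMP receptors and SMADs 2 to 4, BMP inhibitors 5 to 8, class II genes 4 to 8 and HES and HEY genes 2 to 6. Over all peaks, 1821 to 2978 were called higher, the lowest without HMGB2OE replicate 1, and 1552 to 2237 lower.

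With the replicate number as a block, 13 ID2 peaks were called, the 11 of the fit without it among them, and 4 peaks of BMP receptors and SMADs, and no other count of calls moved by over 1.5 times. The deviations of libraries with the same number correlated at −0.0886, 0.185 and 0.125 for numbers 1, 2 and 3, and empty vector replicate 1 correlated best with HMGB2OE replicate 3 (0.152), so the numbers were not taken to pair the libraries.

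At 28.5 normalized counts in empty vector cells, peak 21 had a standard error of 0.341, against 0.0787 at 1258 in peak 29. The part of depth in this was not tested.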
